A study of Homo sapiens with 17 samples.

Results

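Aminoacyl-tRNA synthetases and the scaffold proteins that hold some of them together were followed in RNA-seq of cells labelled HepG2, a human liver cancer line. The members were a list of 36 gene symbols, 18 cytosolic synthetases, 15 mitochondrial synthetases whose symbols end in 2, and 3 scaffold proteins. All 36 were found among the 17808 genes of the deposited table. The series asked how metabolic stress alters these cells. Of its 17 samples the 9 RNA-seq libraries were analysed here, and not the 6 for ChIP-seq or the 2 for ATAC-seq. The libraries fell into 3 groups of 3, all wild type. NC cells were untreated, with 24 h in their sample titles. 2-DG cells received 40 mM 2-DG for 48 h. 2-DG, or 2-deoxyglucose, resembles glucose but blocks its breakdown by glycolysis. Nala cells received 40 mM of an agent given here as the labels write it, for 48 h by the titles and 24 h by the series design. Treatment and time in culture cannot be told apart for 2-DG, nor for Nala if its titles hold. The series design calls the replicates biological and does not say how they were separated, so p-values measure the spread between these libraries.

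Aminoacyl-tRNA synthetases join each amino acid to its own tRNA and so supply the ribosome with charged tRNA. Most amino acids have separate nuclear genes for the cytosolic and the mitochondrial enzyme, while GARS1 and KARS1 encode both forms and are counted as cytosolic here. In animal cells several cytosolic enzymes sit in a multisynthetase complex held by the scaffold proteins AIMP1, AIMP2 and EEF1E1. When charged tRNA runs short, the kinase EIF2AK4 slows general translation and favours that of the transcription factor ATF4, which is known to act on genes of amino acid supply through a short promoter element.

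Libraries held 6199778 to 6653130 counted reads, of which 25944 to 31621 fell in the members. Values are RPKM, counted reads scaled to the length of the gene model and to the total of the library. No gene of the deposited values exceeded a mean of 1.21 counted reads per base of its model, and no member 0.531. Whether high levels and their changes are compressed was not tested, so comparisons of level between genes and sums over genes are approximate. In NC the mean level ran from 1.60 (CARS1) to 79.6 RPKM (TARS1) over the tested cytosolic enzymes, from 6.58 (PARS2) to 71.5 RPKM (IARS2) over the tested mitochondrial ones and from 15.4 (EEF1E1) to 30.9 RPKM (AIMP2) over the scaffold proteins. In the Nala group, libraries 2 and 3 differed from each other by less than sampling noise (chi-square per degree of freedom 0.923 over 12897 genes, chi-square p = 1), while the other pairs within groups gave 2.12 to 9.89. They were counted as 1 sample, which leaves n = 2 for each Nala mean, SD and test. Of 11 hepatocyte markers 3 had values. APOB and TF lay at 0 to 0.109 RPKM in every library and HNF4A at 1.41 to 3.30 RPKM, so the first 2, defining transcripts of the labelled cell type, were near 0 in all groups. The other 8 markers were not analysed here.

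Because several cytosolic enzymes moved together with 2-DG, their promoters are shown first. RefSeq promoter windows of GRCh38.p14, from 250 bases before to 50 bases after a listed start site, were held for 32 of the 36 members, some of which have more than 1 start site. LARS1, VARS1, YARS1 and VARS2 had none. Each window was searched on both strands for TGATGNAAN, the core of the amino acid response element, and for CACGTG, the E-box. The first was found in 6 of 15 cytosolic genes with a window (40%), in 1 of 14 mitochondrial genes (7.14%) and in 0 of 3 scaffold genes. It occurred in 2.76% of the 10009 tested genes with a window and in 3.61% of all 35116 windows. The matches are printed on the strand of the gene with 10 bases on either side and the matched letters in capitals, which read as the reverse complement where the match lies on the opposite strand.
CARS1: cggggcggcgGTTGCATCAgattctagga
GARS1: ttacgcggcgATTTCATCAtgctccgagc
IARS1: ttttcagcgcGTTGCATCAcctccgtgcg
MARS1: gccggttccgGTTGCATCAgcgagggatt
NARS1: ctacgctctcTGATGCAACgccggaatcg
TARS1: gcgcctttcgATTGCATCAgctggtccag
YARS2: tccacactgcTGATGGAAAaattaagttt
The stretches lie at chr11:3057408-3057436 on the minus strand for CARS1, chr7:30594834-30594862 on the plus strand for GARS1, chr9:92293693-92293721 on the minus strand for IARS1 and chr12:57488053-57488081 on the plus strand for MARS1. Those of NARS1 and TARS1 are chr18:57621804-57621832 on the minus strand and chr5:33440956-33440984 on the plus strand, and that of YARS2 is chr12:32756076-32756104 on the minus strand. Counted from the start site of the window that holds them, the 6 cytosolic matches lie between -34 (GARS1) and 23 (NARS1). In GARS1 and TARS1 that site lies inside the annotated gene, downstream of its first base. The mitochondrial match in YARS2 lies at -197 to -189. CACGTG was found in IARS1, in the mitochondrial genes CARS2, EARS2 and MARS2 and in the scaffold gene AIMP2, against 12.7% of tested genes and 7.26% of all windows. In IARS1, the gene with both, the matches do not overlap. A match describes letters in this window and is no evidence of binding.

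Under 2-DG most of the cytosolic synthetases that changed were higher and most of the mitochondrial ones that changed were lower. Of 17 cytosolic enzymes tested 8 rose and 1 fell (median log2 fold change 0.25). Of 14 mitochondrial enzymes tested 2 rose and 5 fell (median -0.13). None of the 3 scaffold proteins was called in either direction. Over all 12922 genes tested 43.3% were called, 22.6% higher and 20.7% lower, with a median log2 fold change of 0.02, so that the 16 called among 34 tested members are a share close to this background (limma with an intensity trend, Benjamini-Hochberg over all genes, adjusted p under 0.05). The split by compartment was described and not tested. All log2 fold changes were taken after adding 1 to the RPKM, so those of low genes are understated. In bulk RNA fewer cells of a type and less RNA per cell cannot be told apart.

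**Figure D1:**
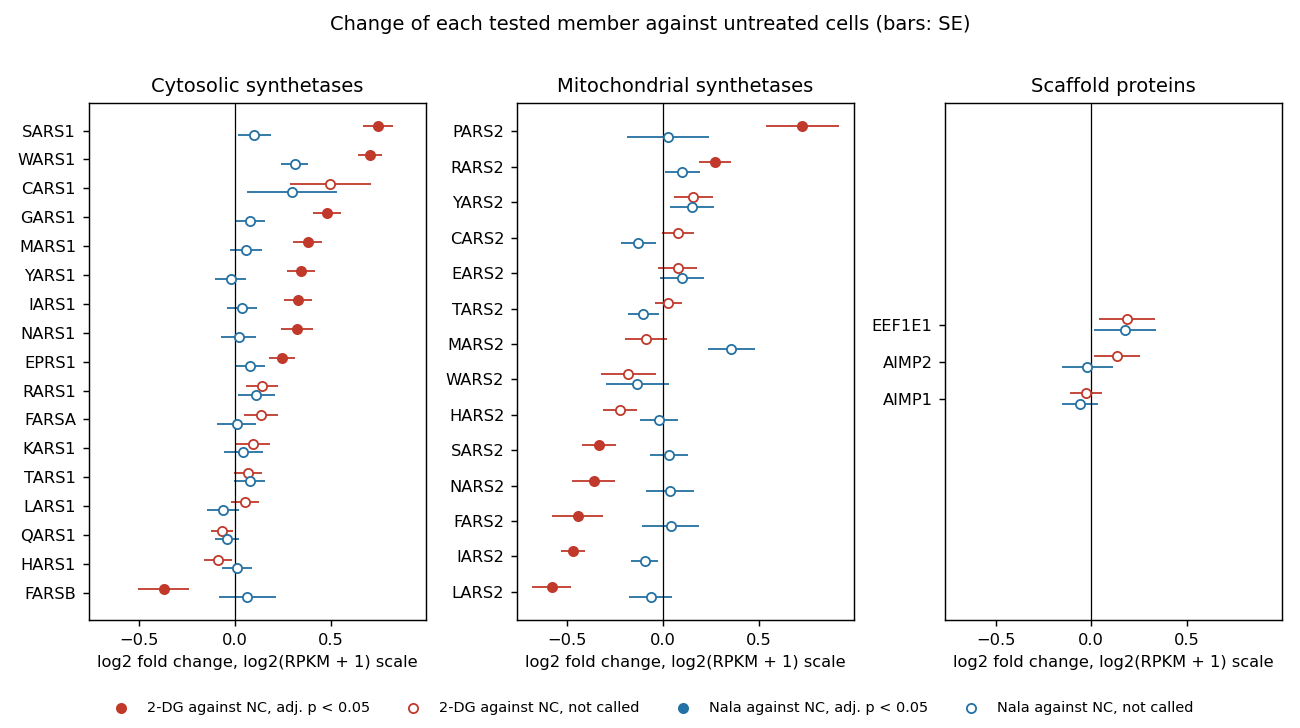
Log2 fold change of each tested member against NC on the log2(RPKM + 1) scale, with bars of 1 SE, for 2-DG (red) and Nala (blue); filled points have a limma adjusted p under 0.05. With 2-DG the cytosolic enzymes run from -0.37 (FARSB) to 0.75 (SARS1) and the mitochondrial ones from -0.58 (LARS2) to 0.73 (PARS2), and no Nala point is filled.

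Among the cytosolic enzymes outside the complex, SARS1, WARS1, GARS1, YARS1 and NARS1 rose with 2-DG. SARS1 (chr1:109213893-109238182), which charges serine tRNA and also selenocysteine tRNA, lay at 53.6, 62.8 and 59.5 RPKM in NC replicates 1 to 3 and at 92.0, 103 and 102 RPKM with 2-DG. All 3 treated libraries stood well above every untreated one (log2 fold change 0.75, SE 0.0761, limma adjusted p = 8.48e-05). WARS1 (chr14:100333790-100376327), the tryptophan enzyme, which interferon is known to induce, measured 55.1, 60.1 and 57.5 RPKM in NC and 90.7, 97.4 and 95.5 RPKM with 2-DG. Here too the groups were far apart (log2 fold change 0.71, SE 0.0621, limma adjusted p = 3.64e-05). For GARS1 (chr7:30594735-30634033), the glycine enzyme, the NC libraries gave 64.3, 76.4 and 70.8 RPKM and the 2-DG libraries 97.4, 102 and 96.7 RPKM. The lowest treated value exceeded the highest untreated one (log2 fold change 0.48, SE 0.0717, limma adjusted p = 0.000742). YARS1, the tyrosine enzyme, averaged 56.9 ± 4.87 RPKM in NC and 72.4 ± 1.07 RPKM with 2-DG (SD, n = 3 each). NARS1, the asparagine enzyme, averaged 52.3 ± 3.86 and 65.8 ± 5.21 RPKM in these groups (SD, n = 3 each). In both genes the groups did not overlap, with log2 fold changes of 0.34 (SE 0.0728, limma adjusted p = 0.0047) and 0.33 (SE 0.0829, limma adjusted p = 0.0114). All 5 of these calls held under every alternative fit run, though only SARS1 and WARS1 rose by at least 1.5-fold.

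The phenylalanine enzyme is built from 2 kinds of subunit, of which FARSB was called and FARSA was not. FARSB measured 25.7, 34.6 and 29.0 RPKM in NC and 19.5, 22.9 and 25.9 RPKM with 2-DG. The groups overlapped, since 2-DG replicate 3 lay above NC replicate 1, and the call was marginal (log2 fold change -0.37, SE 0.132, limma adjusted p = 0.0461). Its adjusted p rose to 0.15, 0.0949, 0.114, 0.0893 and 0.0667 without NC replicate 2, NC replicate 3, 2-DG replicate 1, 2-DG replicate 2 and Nala replicate 1 in turn, and passed 0.05 under 3 other settings. FARSA lay at 66.7, 75.7 and 72.7 RPKM in NC and 71.1, 82.4 and 83.8 RPKM with 2-DG, with overlapping groups (log2 fold change 0.14, SE 0.0892, limma adjusted p = 0.24). The difference between the subunits was not tested.

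CARS1, the cysteine enzyme, was the lowest of the tested cytosolic genes at 24 to 58 reads a library. It measured 1.54, 1.90 and 1.37 RPKM in NC and 3.32, 2.44 and 2.31 RPKM with 2-DG. The groups did not overlap, but the change did not pass the test (log2 fold change 0.50, SE 0.211, limma adjusted p = 0.0835). HARS1 (histidine) at 35.2 ± 1.91 and 33.0 ± 0.193 RPKM and TARS1 (threonine) at 79.6 ± 7.42 and 83.4 ± 1.54 RPKM (SD, n = 3 each, NC first) were not called. VARS1, the valine enzyme, did not reach the filter of 1 RPKM in 3 libraries. Its NC libraries held 0.253, 0.213 and 1.201 RPKM and the treated ones 0.1401 to 0.360 RPKM, from 4 to 32 reads in all, and NC replicate 3 alone was high. Of the 6 cytosolic genes with the TGATGNAAN letters printed above, GARS1, IARS1, MARS1 and NARS1 rose while CARS1 and TARS1 were not called. SARS1, WARS1 and EPRS1 rose without these letters in their windows.

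Of the 7 enzymes in the multisynthetase complex MARS1, IARS1 and EPRS1 rose with 2-DG, with a median log2 fold change of 0.14 over the 7, against 0.34 over the 10 tested cytosolic enzymes outside it. MARS1 (chr12:57488068-57516652), the methionine enzyme, measured 58.9, 70.4 and 68.1 RPKM in NC and 90.3, 83.7 and 83.3 RPKM with 2-DG. Its groups did not overlap (log2 fold change 0.38, SE 0.0766, limma adjusted p = 0.00362). MARS1 overlaps DDIT3, the stress transcription factor CHOP, over chr12:57516588-57516652, and ARHGAP9 over chr12:57488068-57488824. DDIT3 had a log2 fold change of 1.81 and ARHGAP9 one of 1.41 in the same comparison. The sources used here do not say whether counting used strand, so reads of the shared stretches cannot be told apart and the part of DDIT3 and ARHGAP9 in the MARS1 value was not tested. IARS1, the isoleucine enzyme, went from 58.5 ± 4.81 to 73.6 ± 1.69 RPKM (SD, n = 3 each) without overlap (log2 fold change 0.33, SE 0.0714, limma adjusted p = 0.00524).

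EPRS1, a single protein that charges both glutamate and proline tRNA, measured 64.7, 74.3 and 73.3 RPKM in NC and 85.1, 83.1 and 83.6 RPKM with 2-DG. The rise was small and the groups did not overlap (log2 fold change 0.25, SE 0.0681, limma adjusted p = 0.0169). Without 2-DG replicate 3 the adjusted p was 0.0516. KARS1 (lysine), LARS1 (leucine), QARS1 (glutamine) and RARS1 (arginine) were not called, with log2 fold changes of 0.09, 0.05, -0.07 and 0.14 and overlapping groups. KARS1 passed the test only without 2-DG replicate 1 (limma adjusted p = 0.0442), the library in which it measured 60.9 RPKM against 75.0 and 74.6 RPKM in the others. None of the scaffold proteins passed the test. AIMP1 measured 21.2 ± 1.17 RPKM in NC and 20.8 ± 0.492 RPKM with 2-DG, AIMP2 30.9 ± 4.90 and 33.8 ± 3.15 RPKM, and EEF1E1 15.4 ± 2.54 and 17.7 ± 2.54 RPKM (SD, n = 3 each), with adjusted p from 0.325 to 0.811 by limma. Synthetases also divide by fold into class I and class II. With 2-DG 4 of 8 tested cytosolic class I enzymes rose, and 3 of 8 class II enzymes rose while 1 fell. These stand against 22.6% of all tested genes higher and 20.7% lower. EPRS1, which also rose, was counted in neither class here.

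**Figure D2:**
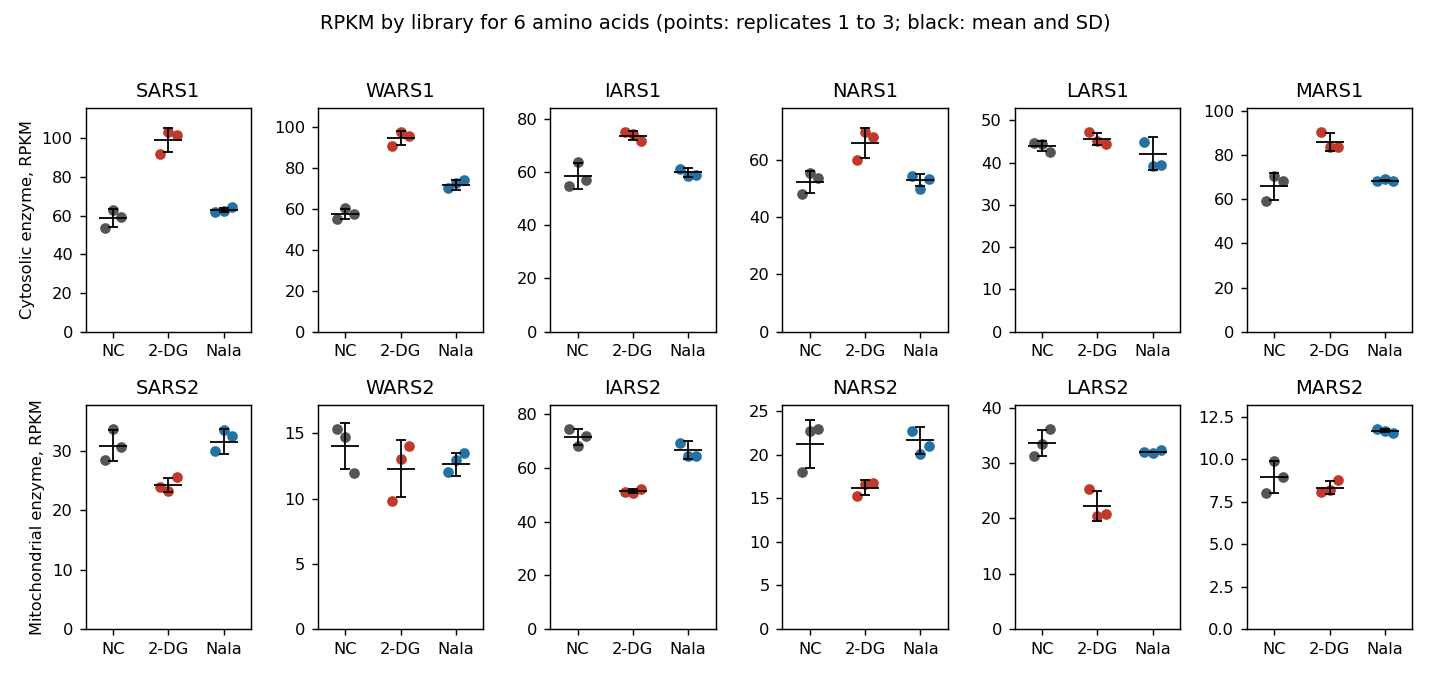
RPKM of the cytosolic (top) and mitochondrial (bottom) enzyme for serine, tryptophan, isoleucine, asparagine, leucine and methionine, with 1 point per library and the mean and SD in black (n = 3, and n = 2 for Nala with replicates 2 and 3 as 1 sample). SARS1 reaches 92.0 to 103 RPKM with 2-DG while SARS2 falls to 23.3 to 25.5 RPKM, and MARS2 is highest with Nala, at 11.5 to 11.8 RPKM.

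Among the 14 tested mitochondrial synthetases, LARS2, IARS2, FARS2, NARS2 and SARS2 fell under 2-DG, PARS2 and RARS2 rose and 7 were not called. LARS2 (chr3:45388576-45549407), the leucine enzyme, lay at 31.4, 33.4 and 36.1 RPKM in NC and at 25.4, 20.5 and 20.7 RPKM with 2-DG. Every treated library was below every untreated one (log2 fold change -0.58, SE 0.101, limma adjusted p = 0.00166). IARS2 (chr1:220094132-220148041), the isoleucine enzyme and the most abundant mitochondrial synthetase of the list in NC, measured 74.4, 68.3 and 71.8 RPKM there and 51.1, 50.7 and 52.1 RPKM with 2-DG. Its 2-DG libraries lay close together and far below NC (log2 fold change -0.47, SE 0.0630, limma adjusted p = 0.000412). These 2 calls held under every alternative fit run. In the main fit, after adding 1 to the RPKM, neither fell by as much as 1.5-fold, LARS2 only narrowly. Alternative fits took LARS2 as low as a log2 fold change of -0.68, which is beyond 1.5-fold. IARS2 holds the microRNA gene MIR215 and LARS2 overlaps LARS2-AS1, both listed at low values (up to 1.41 and 0.247 RPKM).

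FARS2 (chr6:5249934-5771583), the phenylalanine enzyme, gave 18.1, 18.4 and 18.1 RPKM in NC and 10.3, 14.7 and 14.8 RPKM with 2-DG. 2-DG replicate 1 was the lowest, and the groups did not overlap (log2 fold change -0.45, SE 0.133, limma adjusted p = 0.023). Its gene overlaps LYRM4, which was not called (log2 fold change 0.32). The adjusted p of FARS2 was 0.0571 without NC replicate 2 and 0.0602 without NC replicate 3. NARS2, the asparagine enzyme, measured 18.04, 22.7 and 23.0 RPKM in NC and 15.2, 16.6 and 16.8 RPKM with 2-DG. NC replicate 1 was the lowest of the untreated values and still above all treated ones (log2 fold change -0.36, SE 0.112, limma adjusted p = 0.0266). The call did not survive the loss of NC replicate 2 or 3 (adjusted p = 0.0845 and 0.103) or of 2-DG replicate 1, 2 or 3 (adjusted p = 0.0532, 0.053 and 0.0554). SARS2, the serine enzyme, measured 28.4, 33.6 and 30.6 RPKM in NC and 24.0, 23.3 and 25.5 RPKM with 2-DG. The groups did not overlap (log2 fold change -0.33, SE 0.0895, limma adjusted p = 0.0148), and the adjusted p was 0.0534 without NC replicate 2 and 0.0511 without 2-DG replicate 2.

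PARS2 and RARS2 rose with 2-DG, against the direction of most mitochondrial enzymes that changed. PARS2 (chr1:54756898-54764523), the proline enzyme, was the lowest tested mitochondrial synthetase in NC. It measured 7.99, 4.86 and 6.89 RPKM in NC and 8.92, 12.8 and 12.8 RPKM with 2-DG. All treated values were higher, 2-DG replicate 1 only narrowly (log2 fold change 0.73, SE 0.191, limma adjusted p = 0.0134), and without 2-DG replicate 3 the adjusted p was 0.0516. RARS2, the arginine enzyme, lay at 25.0, 25.6 and 24.3 RPKM in NC and 28.6, 33.2 and 29.5 RPKM with 2-DG. Its groups did not overlap (log2 fold change 0.27, SE 0.0829, limma adjusted p = 0.025), but the call was lost without NC replicate 3, 2-DG replicate 2 or 2-DG replicate 3 (adjusted p = 0.0861, 0.0979 and 0.0575).

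The other 7 tested mitochondrial enzymes were not called. HARS2, the histidine enzyme, whose gene starts 84 bp from HARS1, measured 35.6, 39.9 and 41.8 RPKM in NC and 36.1, 32.6 and 31.4 RPKM with 2-DG, with 2-DG replicate 1 inside the untreated range (log2 fold change -0.22, SE 0.0889, limma adjusted p = 0.0696). It passed the test without NC replicate 1 (adjusted p = 0.0328), without 2-DG replicate 1 (adjusted p = 0.0266) and with the Nala pair kept apart (adjusted p = 0.0485). CARS2 (cysteine), EARS2 (glutamate), MARS2 (methionine), TARS2 (threonine), WARS2 (tryptophan) and YARS2 (tyrosine) had log2 fold changes from -0.18 to 0.16, with overlapping groups. VARS2, the valine enzyme, did not reach the filter, at 0.347, 0.684 and 0.685 RPKM in NC and 0.144, 0.137 and 0.0695 RPKM with 2-DG. It rested on 2 to 20 reads a library and was not tested. Of 8 tested mitochondrial class I enzymes 1 rose and 2 fell, and of 6 class II enzymes 1 rose and 3 fell, against 22.6% of all tested genes higher and 20.7% lower. The class I shares (12.5% and 25%) are near that background. Without overlap between groups were 16 of the 34 tested members, 11 higher and 5 lower with 2-DG, against 52.1% of all tested genes (27.1% higher and 25% lower).

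By amino acid, the ratio of cytosolic to mitochondrial enzyme rose with 2-DG in 8 of 11 pairs without overlap between libraries. Of all single genes tested 52.1% did not overlap, and no such share was computed for ratios of other gene pairs. The log2 ratio of SARS1 to SARS2 was 0.89, 0.88 and 0.94 in NC and 1.90, 2.102 and 1.95 with 2-DG. This was the widest move of the 11 and a change of the ratio by 2.11 times, made of a higher SARS1 and a lower SARS2. The tryptophan pair went from 1.78, 1.96 and 2.17 to 3.08, 2.81 and 2.68 and the isoleucine pair from -0.44, -0.10 and -0.33 to 0.54, 0.54 and 0.45, both well apart. In the isoleucine pair the sign changed, so that IARS2 was the higher transcript in every NC library and IARS1 in every 2-DG library. The leucine ratio rose from 0.50, 0.40 and 0.23 to 0.87, 1.11 and 1.06, with LARS2 called lower and LARS1 not called. The asparagine, methionine, cysteine and tyrosine pairs also did not overlap, with mean differences of 0.69, 0.47, 0.42 and 0.19. The histidine, threonine and arginine pairs overlapped, and the arginine ratio was the 1 of the 11 with a lower mean under 2-DG (-0.13). With 3 libraries against 3 an exact permutation test cannot go below p = 0.1, so no test of the ratios is given, and they restate the levels above.

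Summed over the 18 cytosolic synthetases, the level was 888, 1014 and 960.3 RPKM in NC and 1114, 1171 and 1160.2 RPKM with 2-DG. Summed over the 15 mitochondrial ones it was 398, 422 and 416 RPKM in NC and 371, 375 and 376 RPKM with 2-DG. Neither sum overlapped between the groups, the first higher and the second lower with 2-DG. The ratio of the sums was 2.31 ± 0.0878 in NC, 3.07 ± 0.0627 with 2-DG (SD, n = 3 each) and 2.44 ± 0.0501 with Nala (SD, n = 2). The sum over the 3 scaffold proteins was 67.5 ± 6.40 RPKM in NC and 72.2 ± 5.97 RPKM with 2-DG (SD, n = 3 each), a difference smaller than the spread between libraries.

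**Figure D3:**
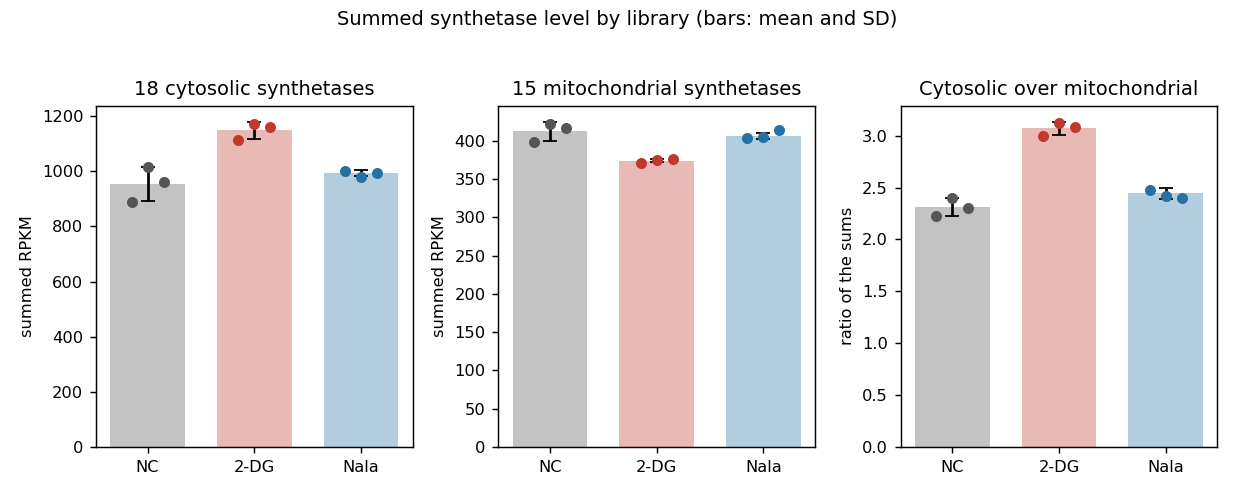
Summed RPKM of the 18 cytosolic and the 15 mitochondrial synthetases and the ratio of these sums, with 1 point per library, bars at the group mean and whiskers of 1 SD (n = 3, and n = 2 for Nala). The ratio lies between 3.00 and 3.12 with 2-DG, above all NC and Nala libraries.

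With Nala no member was called against NC. Over all genes 8 of 12922 were called (0.0619%), and 5.61% had an unadjusted p under 0.05. That count of genes was 64 with Nala replicates 2 and 3 kept apart, and leaving out a library moved it to 19 (NC replicate 1), 4 (NC replicate 3), 23 (2-DG replicate 1) and 1 (Nala replicate 1). WARS1 had the smallest p of the members, at 69.9, 72.7 and 74.3 RPKM in Nala replicates 1 to 3. All 3 libraries lay above the NC values and below the 2-DG values given above (log2 fold change 0.31, SE 0.0694, limma adjusted p = 0.241). With the Nala pair kept apart WARS1 was called (adjusted p = 0.0405). MARS2 measured 11.8, 11.7 and 11.5 RPKM with Nala and 7.99, 9.89 and 8.98 RPKM in NC, again without overlap and not called (log2 fold change 0.36, SE 0.123, limma adjusted p = 0.668). CARS2 measured 52.0, 53.5 and 52.9 RPKM with Nala and 54.3, 61.0 and 57.6 RPKM in NC, with all Nala values lower (log2 fold change -0.13, SE 0.0924, limma adjusted p = 0.997). The log2 ratio of cytosolic to mitochondrial enzyme did not overlap between Nala and NC for tryptophan, where it was higher by a mean of 0.45. Nor did it for methionine (-0.30) and tyrosine (-0.17), where it was lower with Nala. No share without overlap was computed for ratios of other gene pairs. Apart from WARS1, MARS2 and CARS2, the Nala and NC libraries overlapped in the other 31 tested members, while 18.2% of all genes did not (10.2% higher and 8.03% lower with Nala). The tested members had a median log2 fold change of 0.04 with Nala, and the largest SE among them was 0.236 for CARS1, so small changes could not be told from none.

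The direct comparison of Nala with 2-DG called 15 members, 8 lower and 7 higher with Nala, against 35.9% of all genes (18% lower and 17.9% higher). The 8 lower were SARS1, WARS1, GARS1, YARS1, MARS1, NARS1, IARS1 and the mitochondrial PARS2. The 7 higher were FARSB and the mitochondrial LARS2, FARS2, MARS2, NARS2, IARS2 and SARS2. The 2-DG libraries serve both comparisons, so these calls are no independent repeat of those against NC. SARS1 measured 62.2, 62.6 and 64.5 RPKM with Nala, below all 2-DG values (log2 fold change -0.65, SE 0.0850, limma adjusted p = 0.000532). LARS2 measured 32.0, 31.8 and 32.3 RPKM with Nala, above all 2-DG values (log2 fold change 0.52, SE 0.113, limma adjusted p = 0.00709). For WARS1 the log2 fold change was -0.39 (SE 0.0694, limma adjusted p = 0.00249), for GARS1 -0.40 (SE 0.0801, limma adjusted p = 0.00454) and for IARS2 0.37 (SE 0.0704, limma adjusted p = 0.00349). MARS2, not called with either agent against NC, was higher with Nala than with 2-DG (log2 fold change 0.44, SE 0.123, limma adjusted p = 0.0204), and its 2-DG libraries lay at 8.05, 8.17 and 8.79 RPKM. The agents' libraries did not overlap in 21 of 34 tested members, 9 higher and 12 lower with Nala, against 58.2% of all genes (28.9% and 29.4%). RARS2 and EPRS1 were not called between the agents (adjusted p = 0.179 and 0.122).

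These calls rested on few samples. Without Nala replicate 1 the comparison left 1 Nala sample and called 3 members, GARS1, SARS1 and WARS1, and 2217 of all genes in place of 4639. Without 2-DG replicate 2 it called 8 of 34 tested members and 3548 of 12797 genes. No members other than GARS1, SARS1 and WARS1 were called between the agents under every alternative fit run. A minimum fold of 1.5, set on the main fit, left only SARS1 and PARS2. Both agents were given at 40 mM, while the sources differ on whether the hours matched.

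Among synthetase genes that are not members, AARS1, the alanine enzyme, and TARS3, another cytosolic threonine enzyme, rose with 2-DG, and AARS2, the mitochondrial alanine enzyme, was not called. They are given as single genes, with no count over such genes. AARS1 measured 88.5, 98.2 and 94.4 RPKM in NC and 139.9, 132 and 127 RPKM with 2-DG (log2 fold change 0.50, SE 0.0606, limma adjusted p = 0.000231). TARS3 measured 6.21, 5.31 and 5.75 RPKM in NC and 13.2, 15.3 and 14.5 RPKM with 2-DG (log2 fold change 1.18, SE 0.111, limma adjusted p = 5.55e-05), beside TARS1, which was not called. In neither AARS1 nor TARS3 did the groups overlap.

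For neighbouring steps of tRNA supply and use, the counts below stand against 43.3% of all tested genes called with 2-DG, 22.6% higher and 20.7% lower. Of 8 tested accessory enzymes of tRNA charging 1 rose and 1 fell, PSTK (log2 fold change 0.75), which acts on selenocysteine tRNA, and GATB (-0.52), which helps make mitochondrial glutamine tRNA. Of 40 tested genes of tRNA maturation and modification 6 rose and 8 fell, with a median of -0.15, among them TRMT61A (0.81) and the RNase P subunits POP1 (-1.19) and POP7 (-0.78). Of 21 tested genes of RNA polymerase III and its factors, which transcribe tRNA genes, 6 rose and 5 fell, with POLR3D at 1.10, POLR3G at -0.89 and POLR3K at -0.87. Among 7 tested cytosolic elongation factors EIF5A2 (0.70) and EEF2 (0.22) rose and EIF5A (-0.26) fell. Of 9 tested mitochondrial translation factors MRRF (0.25) rose and GFM1 (-0.28) fell. These values are log2 fold changes of called genes by limma at an adjusted p under 0.05.

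Of 14 tested regulators and markers of the amino acid response 11 rose and 0 fell with 2-DG (median log2 fold change 1.21). The 11 included EIF2AK3. The 3 not called were EIF2AK4, the kinase named above, EIF2S1 and ATF5. Which signal raised the genes of this list was not tested. CHAC1, which degrades glutathione, had the largest log2 fold change of the list, 2.84 (SE 0.385, limma adjusted p = 0.00044). SESN2, a leucine sensor, stood at 1.81 (SE 0.126, limma adjusted p = 9.78e-06). ATF4 and ASNS, named after their values were seen, were also called. ATF4 averaged 49.6 ± 5.07 RPKM in NC and 65.3 ± 2.49 RPKM with 2-DG (SD, n = 3 each). ASNS, asparagine synthetase, averaged 1.13 ± 0.158 and 5.68 ± 0.735 RPKM in these groups (SD, n = 3 each). The called cytosolic synthetases, at 0.25 to 0.75 among those that rose, moved by less than the median of that list. With Nala 0 genes of any of these lists were called against NC.

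**Figure D4:**
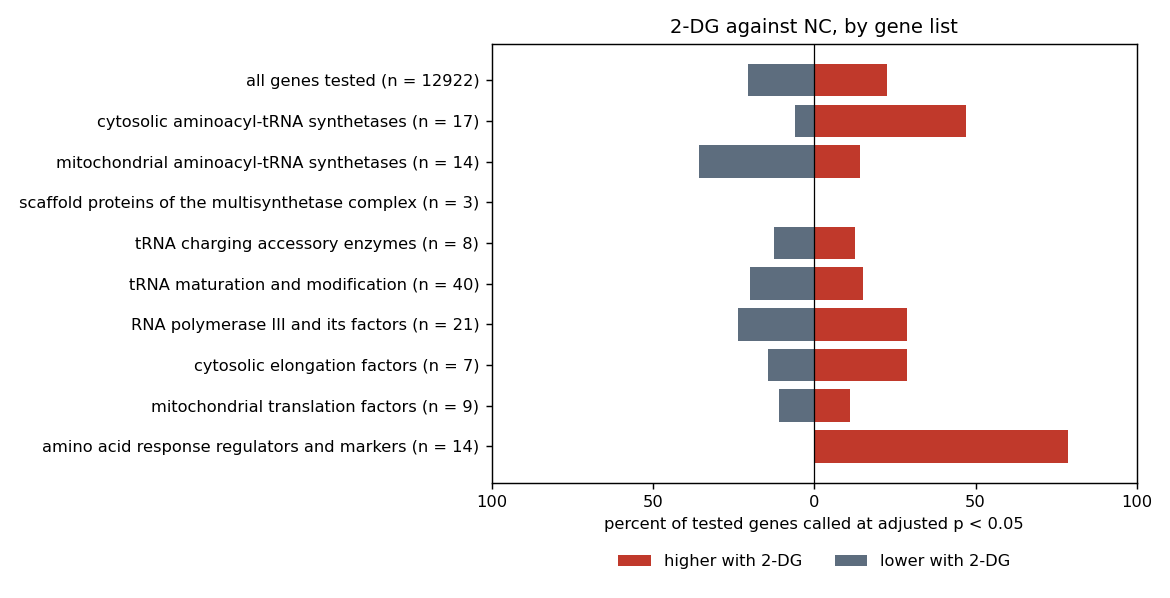
Percent of the tested genes of each list that were called higher (red, right) or lower (grey, left) with 2-DG than in NC, with all genes tested at the top (22.6% higher, 20.7% lower) and the number tested in brackets. Cytosolic synthetases stand at 47.1% higher and 5.88% lower, mitochondrial ones at 14.3% higher and 35.7% lower, and the scaffold proteins at 0.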

How the data were processed

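RNA was measured in 9 libraries, grouped by their labels. The authors deposited RPKM values for each library. The submitters' processing notes name hg38 and, without saying for which of the 3 assays, the aligners Bowtie2 2.2.5, HISAT2 2.1.0 and STAR 2.7.6a and, for quantification, RSEM 1.2.8. The tool behind the RPKM values and any use of strand were not given in sources used here. Whole reads were recovered for 100% of genes within 0.0001 reads, and voom on these reads gave 5801, 54 and 4931 called genes for 2-DG against NC, Nala against NC and Nala against 2-DG.

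Genes that reached 1 RPKM in 3 or more libraries were fitted as log2(RPKM + 1) with limma 3.58.1 in R 4.3.3, using an intensity trend, all 3 groups and Nala replicates 2 and 3 averaged (8 samples, 5 residual degrees of freedom), with Benjamini-Hochberg adjustment over all 12922 genes and a threshold of 0.05. In simulated data, 6% of genes given a 1.25-fold change were recovered for 2-DG against NC and 0% for Nala against NC. At 1.5-fold these shares were 46% and 28.6%, and at 2-fold 92% and 89.8%. Changes of 1.5-fold or less could therefore often be missed in both comparisons. Members and lists were chosen with earlier results of these data known. All 36 members are accounted for, and some genes of the other lists are not reported here. Library values are given for up to 8 members with the largest called change. They are also given for those called against most of their group and for those whose call is lost or whose groups overlap. Of the other lists up to 3 called genes each are named, and in the amino acid response list ATF4, ASNS and EIF2AK3 besides. Gene positions and promoter windows are from RefSeq, GRCh38.p14. Alternatives were another pseudocount, filters, scalings, no trend, 2 groups only, the Nala pair apart, a replicate block, voom, a minimum fold of 1.5 and each library left out.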

Additional observations from a re-analysis of the deposited data

How the results depend on the processing

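For 2-DG against NC, requiring at least a 1.5-fold change left 2807 of 5592 genes and 3 of 16 members, and leaving out 1 library gave 4186 to 6006 genes and 12 to 17 members. For Nala against NC the 8 genes became 25 with no filter, 15 with a filter of 5 RPKM, 13, 17 and 16 with median-of-ratios, quantile and common-sum scaling, 64 with the Nala pair kept apart, 31 with the replicate block and 54 with voom, and 1 to 23 without 1 library. Members called went from 0 to 1 (WARS1) with the pair kept apart. For Nala against 2-DG a 1.5-fold minimum left 2647 genes and 2 members, and leaving out 1 library gave 2217 to 5176 genes and 3 to 15 members. The scalings left the members called at 10 higher and 6 lower with 2-DG. Over 2037 combinations of member, comparison and alternative fit, 52 lost a call and 6 gained one. No called member changed sign, and members that were not called did so in 54. The cause of these changes was not tested.

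Samples with the same replicate number did not deviate together (correlations of -0.119 to 0.0772), so no pairing by number was seen. Taken from deviations around means of 3 libraries, these correlations cannot exclude a pairing. With the number as a replicate block 5867, 31 and 5708 genes and 16, 0 and 15 members were called in the 3 comparisons. VARS1 and VARS2 rested on 2 to 32 reads a library and CARS1 on 24 to 58, so their values are imprecise. Why these genes held so few reads was not tested.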
